A study of Mus musculus with 16 samples.

Results

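10 genes that make, move and control bile acids were followed in mouse liver by RNA sequencing. They were chosen by name from the 55357 genes of the series count table, which was matched to gene symbols by Ensembl identifier. Cyp7a1, Cyp8b1 and Cyp27a1 encode enzymes of synthesis, Slc10a1, Slco1b2 and Abcb11 encode transporters, and Nr1h4, Nr0b2, Fgfr4 and Klb encode parts of the feedback control. All 10 passed the filter on low counts, which left 14421 genes to be tested.

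The 16 liver samples fall into 4 groups of 4. AUG livers carry the genotype that the labels write as mTERC CUG/AUG, and AUG_WT livers are the wild-type (WT) samples of that line. In del7 livers, genotype mTERC 29_35del, the gene of the telomerase RNA lacks 7 nucleotides at positions 29 to 35, and del7_WT livers are the WT samples of that line. Every sample is labelled untreated, and the mice had free access to food in individually ventilated cages. Whether CUG/AUG names a changed codon or a pair of alleles is not stated in the labels, and neither are age, sex, strain and hour of collection. The comparisons ask how each change in Terc, the telomerase RNA gene, which is also read as the small protein TERP, alters liver transcripts. Terc itself is not analysed here. Nothing in the labels ties each replicate to an animal of its own, and the p-values cover the variation among the libraries, part of which may be technical.

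Bile acids are made from cholesterol in hepatocytes. In the classical route CYP7A1 takes the first and rate-limiting step and CYP8B1 steers the product towards cholic acid. CYP27A1 works in mitochondria, where it opens the alternative route and oxidises the side chain. Bile acids returning from the gut are taken up by NTCP, the product of Slc10a1, and by OATP1B2, the product of Slco1b2. They are exported into bile by BSEP, the product of Abcb11. Synthesis is held down by bile acids themselves. The nuclear receptor FXR, encoded by Nr1h4, senses them and induces Nr0b2, whose product SHP represses Cyp7a1 and Cyp8b1. In mice FXR in the ileum also induces FGF15, a hormone that reaches the liver and acts on the receptor FGFR4 with its co-receptor beta-Klotho, the product of Klb.

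SHP is known to act on Cyp7a1 and Cyp8b1 through factors bound to their promoters, among them NR5A2 (LRH-1). The 250 bases before the start of each gene, in the RefSeq promoter table on GRCm38.p6, were therefore searched on both strands for the extended half-site CAAGGNCA that NR5A2 binds. 9 of the 10 members matched that table by symbol, all but Cyp7a1. The letters were present in 2 of the 9, Nr0b2 and Cyp8b1, and in 5.53% of all 32851 windows of that length. The inverted repeat AGGTCA, any 1 base, TGACCT is a form bound by FXR with its partner RXR. It was in no window of the 9 members and in 0.00609% of all windows. An exact match that rare could hardly fall among the 10 windows of these members, so its absence says nothing about FXR binding. The windows of Nr0b2 and Cyp8b1 are shown because they place the repressor and a gene it acts on side by side, with the match in capitals. That of Nr0b2 lies at chr4:133553126-133553375 on the plus strand, with the match 201 to 194 bases before the start. That of Cyp8b1 lies at chr9:121916306-121916555 on the minus strand, with the match 60 to 53 bases before the start. Both matches are on the strand of the gene. They describe the letters and are not evidence of binding.
Nr0b2 promoter: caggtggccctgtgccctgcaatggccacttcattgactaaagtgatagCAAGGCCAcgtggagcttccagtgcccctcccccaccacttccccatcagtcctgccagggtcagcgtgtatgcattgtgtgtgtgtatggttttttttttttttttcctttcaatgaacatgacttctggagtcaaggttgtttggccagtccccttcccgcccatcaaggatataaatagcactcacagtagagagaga
Cyp8b1 promoter: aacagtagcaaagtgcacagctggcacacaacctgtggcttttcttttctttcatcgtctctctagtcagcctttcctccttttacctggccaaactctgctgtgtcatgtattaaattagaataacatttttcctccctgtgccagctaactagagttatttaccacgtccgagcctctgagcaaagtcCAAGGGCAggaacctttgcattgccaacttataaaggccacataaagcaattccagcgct

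Library totals ranged from 7714058 to 14629022 reads counted in genes, and a member had between 48 and 21343 reads in a library. Levels are given as CPM, reads of a gene scaled to a common library size, after TMM scaling of the library totals. 8 hepatocyte markers together held 108115 to 172672 CPM in 15 of the libraries, and of 6 ileum markers Fabp6 and Fgf15 had 0 reads in all 16. The ileum list summed to 28.0 to 67.0 CPM, with the highest sum in AUG_WT replicate 2. AUG_WT replicate 1 stood apart. Its score on the main axis of a principal component analysis, with 34.5% of the variance, was 126.1, and its hepatocyte markers summed to 51617 CPM. Its 7 B and plasma cell markers, of which 6 were tested, summed to 731 CPM, against 33.6 to 331 CPM in the other 15 libraries. None of that list was at 0 in every library. Markers of dividing cells summed to 395 CPM there, against at most 25.4 CPM elsewhere, and those of T and NK cells to 78.6 CPM, against at most 14.2 CPM. Bile duct markers summed to 130.3 CPM, against at most 75.8 CPM, and Kupffer cell and macrophage markers to 516 CPM, against at most 445 CPM. Not every list was raised in this library. Sinusoidal endothelium markers summed to 252 CPM, against 345 to 444 CPM in the others. Stellate cell markers summed to 614 CPM, against 476 to 644 CPM, and erythroid markers to 119 CPM, against 112 to 2610 CPM. Of its reads 35.0% fell outside genes, against 21.8 to 29.4% in the others, and 9.23% mapped to several places, the lowest share of the 16. The fold change of each member in AUG is therefore also given without this library.

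AUG_WT replicate 1 had the lowest level of 8 of the 10 members among the 16 libraries. By group, the hepatocyte markers summed to 118037 to 123981 CPM in AUG, 51617 to 172672 in AUG_WT, 110165 to 135202 in del7 and 122170 to 140891 in del7_WT. The lowest level of a gene fell in this library for 25.8% of all 14421 tested genes. Against the other 3 AUG_WT libraries, Cyp8b1 stood at -3.06 on the log2 scale and Nr0b2 at -2.34. Abcb11 stood at -1.75, Klb at -1.49, Slc10a1 at -1.32, Cyp27a1 at -1.27 and Slco1b2 at -1.20. Fgfr4 and Nr1h4 were both at -0.57, and Cyp7a1 was the exception at 0.33. The median of the hepatocyte markers in the same contrast was -1.18, so 7 members were further down than that median and, besides Cyp7a1, 2 were less far down. In bulk liver, fewer hepatocytes and less RNA per hepatocyte cannot be told apart. Against the other 3 AUG_WT libraries, 13 tested acute phase and cytokine genes had a median of 1.22. Those of the feeding, core clock and cholesterol synthesis lists were -1.45, -0.60 and -0.41. The acute phase and cytokine list summed to 6150 CPM there, against 3786 to 6905 CPM elsewhere. The parts of the other cell types and of an acute phase response in the low levels of this library were not tested.

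**Figure D1:**
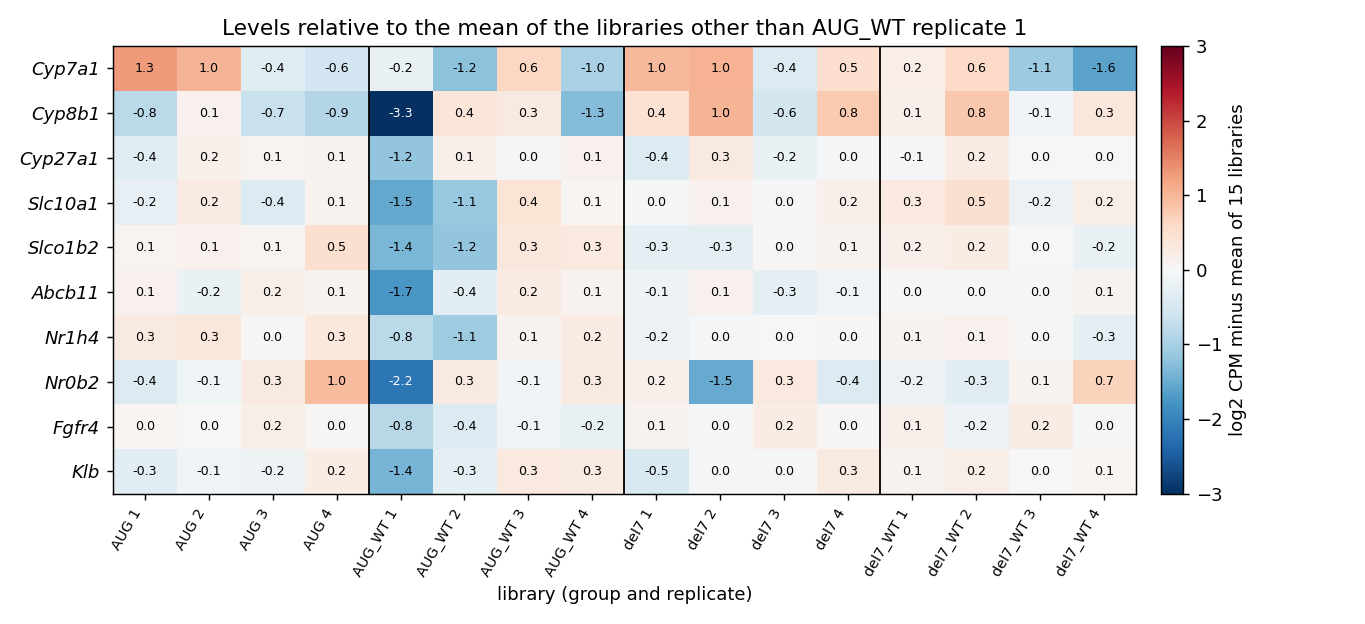
Level of each member in each library, as log2 CPM minus the mean of the 15 libraries other than AUG_WT replicate 1 (colour scale and printed values, log2 units), with libraries in columns and members in rows. AUG_WT replicate 1 is below 0 for every member, from -3.28 for Cyp8b1 to -0.20 for Cyp7a1, which lies within the range of the other libraries, and AUG_WT replicate 2 is low for Cyp7a1, Slc10a1, Slco1b2 and Nr1h4.

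AUG_WT replicate 2 differed in another way. It had the lowest level of 5 members among the 15 remaining libraries, namely Abcb11, Slc10a1, Slco1b2, Nr1h4 and Fgfr4. Relative to AUG_WT replicates 3 and 4, Slco1b2 stood at -1.49 on the log2 scale, Slc10a1 at -1.37, Nr1h4 at -1.24 and Cyp7a1 at -1.05. Cyp8b1 was at 0.87 and Nr0b2 at 0.16 in the same contrast. Its hepatocyte markers were not low, with a median of 0.19 against the same 2 libraries. The low uptake transporters and FXR of this library thus stood beside hepatocyte markers at or above those of its group. AUG_WT without replicate 1 still holds this library, and the AUG fold change of each member without both is also given below.

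No member was called in any comparison. With edgeR's quasi-likelihood test and Benjamini-Hochberg adjustment over all tested genes at a threshold of 0.05, 0 of 10 members were called between AUG and AUG_WT, where 0.0277% of all genes were called. 0 of 10 were called between del7 and del7_WT, where the share of all genes was 0%, and 0 of 10 in the difference between the AUG effect and the del7 effect, where it was 0.00693%. 0 of 10 were called between AUG_WT and del7_WT, where it was 0.0347%. At an unadjusted p under 0.05 the counts of members were 2 for AUG, 0 for del7, 0 for the difference and 1 for the WT groups. The shares of all genes at that level, in either direction, were 8.81%, 1.92%, 5.21% and 11.8%. The 2 members were higher in AUG, as were 207 of all genes at that level, with 1063 lower. The 1 member was lower in AUG_WT than in del7_WT, as were 370 of all genes, with 1331 higher. DESeq2 and limma voom with sample quality weights also called 0 of 10 in each comparison. For AUG, del7, the difference and the WT groups in turn, DESeq2 called 0.0624%, 0.00693%, 0.0416% and 0.485% of all genes, and voom 0.0416%, 0%, 0.0208% and 0.0832%. Without AUG_WT replicate 1 edgeR called 0 of 10 in each comparison, where it called 0.0274% of all genes for AUG, 0% for del7, 0.0137% for the difference and 0.0686% for the WT groups. At an unadjusted p under 0.05 that fit had 1, 0, 0 and 1 members, where the shares of all genes were 5.92%, 5.34%, 3.02% and 7.47%. Across all settings tried the lowest adjusted p of any member was 0.128, for Fgfr4 between the WT groups.

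The direction of the members moved with the libraries in the fit. Between AUG and AUG_WT, 9 of 10 fold changes were above 0 in the edgeR fit, with a median log2 fold change of 0.38, against -0.04 over all tested genes. Without AUG_WT replicate 1 the count was 7 of 10 and the median 0.09, against 0.01 over all genes. Without AUG_WT replicates 1 and 2, an alternative added after seeing the data, it was 4 of 10 and -0.05. The other AUG_WT libraries moved the values the other way: without replicate 3, 10 of 10 were above 0 with a median of 0.54 and 4 members had an unadjusted p under 0.05, and without replicate 4 the counts were 9 and 3 with a median of 0.48. At that level, over all genes, the fit without replicate 3 had 438 of 14735 higher in AUG and 1590 lower. The fit without replicate 4 had 554 of 14708 higher and 1730 lower. The lowest adjusted p of a member in these fits was 0.242 and 0.195 by edgeR. Between del7 and del7_WT, 3 of 10 were above 0 with a median of -0.13, and that count stayed at 3 in both reduced fits. Between AUG_WT and del7_WT all 10 were below 0 with a median of -0.30, where the median of all genes was 0.03, against 7 of 10 and -0.09 without AUG_WT replicate 1. Without AUG_WT replicates 1 and 2 the sign turned, with 4 of 10 below 0 and a median of 0.07. The group mean was lowest in AUG_WT for 8 members with all libraries and for 4 members without that one. For every member, groups next to each other in the order of their mean levels had overlapping ranges.

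**Figure D2:**
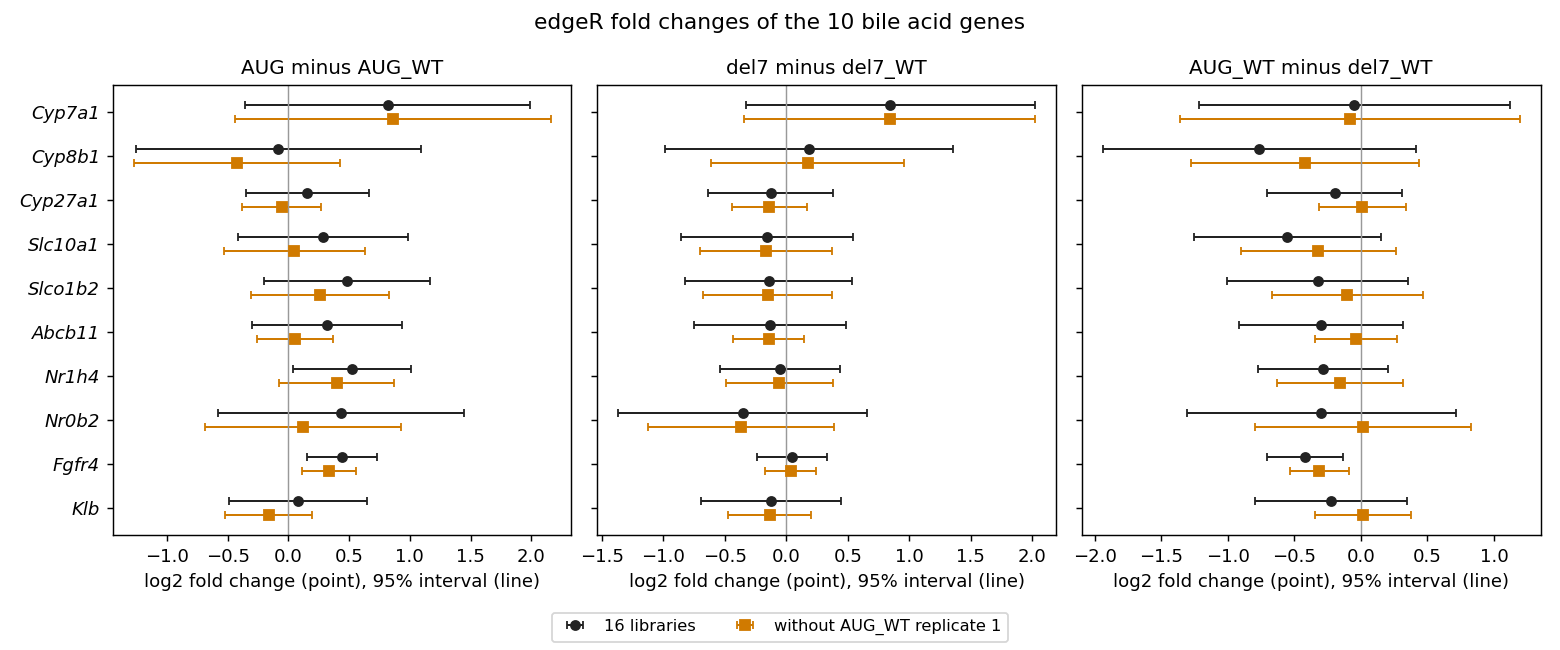
edgeR log2 fold change of each member (points) with its 95% interval (lines) in 3 comparisons, from all 16 libraries (black circles) and without AUG_WT replicate 1 (orange squares). For AUG minus AUG_WT most points move towards 0 without that library, and the interval of Fgfr4 lies above 0 in both fits.

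Cyp7a1, on chromosome 4 (ENSMUSG00000028240.3), varied widely between samples of the same group. Its level was 692, 580.0, 223 and 194 CPM in AUG replicates 1 to 4, against 249, 122, 442 and 145 CPM in AUG_WT. In del7 it was 563, 594, 215 and 409 CPM, against 332, 429, 136 and 94.9 CPM in del7_WT. Both mutant groups held libraries above every library of their WT group, and both overlapped it. The log2 fold change was 0.82 (SE 0.55, adjusted p = 0.679, edgeR) in AUG and 0.85 (SE 0.55, adjusted p = 1.0) in del7, with 95% intervals from -0.36 to 1.99 and from -0.33 to 2.02. Both intervals hold increases as well as decreases. The AUG value was 0.86 (SE 0.61) without AUG_WT replicate 1, 0.48 without AUG replicate 1, 1.31 without AUG_WT replicate 3 and 0.40 with voom weights. It was 0.55 (SE 0.67) without AUG_WT replicates 1 and 2. Leaving out 1 library at a time, the del7 value ran from 0.57 to 1.25. The SD of Cyp7a1 between samples of a group was 0.92 on the log2 scale without AUG_WT replicate 1. It was above that of 97.6% of tested genes, whose median was 0.25.

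Cyp7a1 is under strong control by the hour of day and by feeding, and clock transcripts differed between the same samples. Dbp, a clock output gene, ranged from 10.0 CPM in del7 replicate 1 to 172 CPM in AUG replicate 4. Arntl, a core clock activator, ranged from 2.71 CPM in AUG replicate 4 to 27.4 CPM in del7 replicate 1. AUG replicate 4 had the lowest Cyp7a1 of its group, 194 CPM, and del7 replicate 1 had 563 CPM. The highest Cyp7a1 of all libraries, 692 CPM in AUG replicate 1, stood beside a Dbp of 24.9 CPM and an Arntl of 14.8 CPM. In del7 replicate 2, 594 CPM of Cyp7a1 stood beside 21.5 CPM of Dbp and 27.2 CPM of Arntl. In AUG replicate 2, 580.0 CPM of Cyp7a1 stood beside a high Dbp of 118 CPM. In del7_WT replicate 4 the lowest Cyp7a1 of all libraries, 94.9 CPM, stood beside a low Dbp of 18.2 CPM and an Arntl of 27.2 CPM. These libraries are examples picked from the 16. The part of the clock in the spread of Cyp7a1 was not tested.

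Cyp8b1, on chromosome 9 (ENSMUSG00000050445.5), had 92.9, 179, 104 and 89.9 CPM in AUG, against 16.7, 211, 199 and 66.5 CPM in AUG_WT. In del7 it had 220.2, 336, 111 and 281 CPM, against 182, 289, 156 and 206 CPM in del7_WT. The AUG values lay inside the range of AUG_WT, which spanned 12.6-fold from its lowest to its highest library. The log2 fold change was -0.08 (SE 0.55) in AUG and 0.19 (SE 0.55) in del7, with adjusted p of 0.978 and 1.0 by edgeR. The AUG value was -0.43 (SE 0.40, adjusted p = 0.912) without AUG_WT replicate 1, and -0.17 (SE 0.44) without AUG_WT replicates 1 and 2. AUG_WT stood at -0.76 (SE 0.55) against del7_WT, and at -0.42 (SE 0.40) without AUG_WT replicate 1. Mean Cyp8b1 was highest in del7 and lowest in AUG, 237 ± 96.2 CPM against 116 ± 42.0 CPM (SD, n = 4 each).

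Cyp27a1, on chromosome 1 (ENSMUSG00000026170.7), was the steadiest of the 3 synthesis genes. It averaged 341 ± 51.5 CPM in AUG and 306 ± 107 CPM in AUG_WT, and the del7 mean of 321 ± 65.5 CPM compared with 351 ± 29.6 CPM for del7_WT (n = 4 each, ± SD). AUG_WT averaged 359 ± 24.3 CPM without replicate 1, which had 148 CPM. The AUG fold change was 0.16 (SE 0.24) on the log2 scale with all libraries and -0.05 (SE 0.15) without that one, so its sign rested on 1 library. In del7 it was -0.13 (SE 0.24). Per kilobase of exon, the group means of Cyp27a1 ran from 141 to 162 CPM, those of Cyp7a1 from 57.4 to 107 CPM and those of Cyp8b1 from 59.6 to 122 CPM.

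The ratio of Cyp8b1 to Cyp7a1 within a library does not depend on how libraries are scaled. Its log2 value averaged -0.92 ± 0.34 in del7 and -0.03 ± 0.89 in del7_WT (SD, n = 4 each), a difference of -0.89. An exact two-sided permutation test over the samples gave p = 0.143, or 0.514 after adjustment over 6 ratio tests. In AUG it averaged -1.70 ± 0.84 and in AUG_WT -1.35 ± 1.93, a difference of -0.36 (exact permutation p = 0.886, adjusted 1.0). AUG_WT replicate 1 was at -3.90. Without it AUG_WT averaged -0.50 ± 1.11 (n = 3) and the difference was -1.21 (exact permutation p = 0.343, adjusted 0.6). With 4 against 4 samples such a test cannot go below 0.0286, and with 4 against 3 not below 0.0571.

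**Figure D3:**
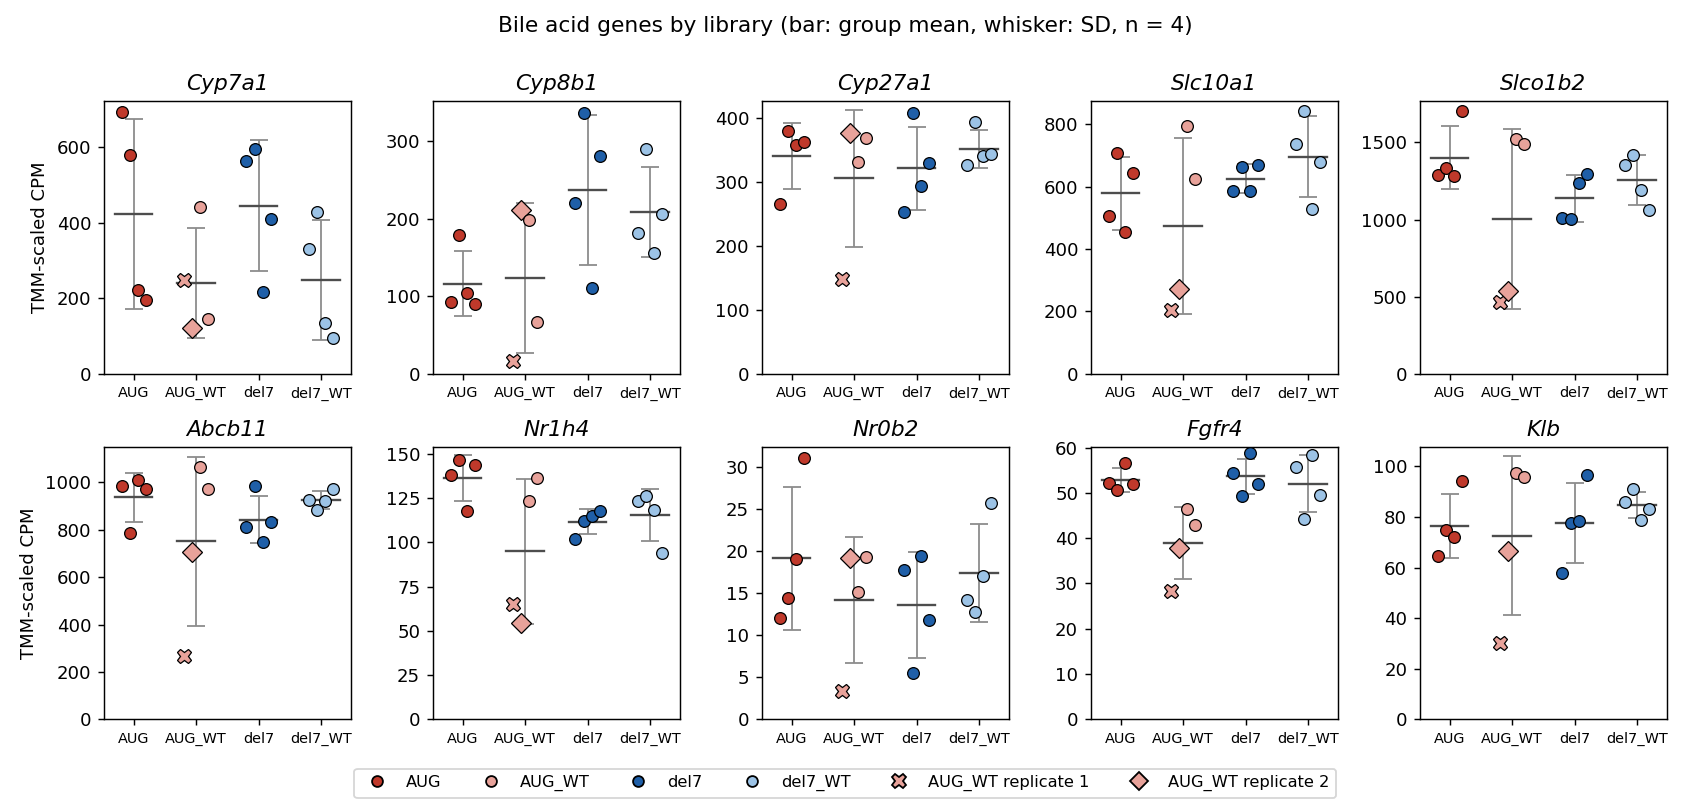
TMM-scaled CPM of each member in every library (points), with the group mean (bar) and SD (whisker, n = 4), AUG and del7 each left of their WT group. The cross marks AUG_WT replicate 1 and the diamond AUG_WT replicate 2. Fgfr4 is the member whose AUG libraries, 50.7 to 56.6 CPM, all lie above AUG_WT, 28.3 to 46.5 CPM.

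Of the transporters, the uptake carriers were low in both AUG_WT replicates 1 and 2. Slco1b2, on chromosome 6 (ENSMUSG00000030236.11), had 1288, 1331, 1280.0 and 1703 CPM in AUG, against 465, 536, 1522 and 1488 CPM in AUG_WT. AUG_WT thus split into a low and a high pair of libraries, and the AUG libraries lay between the pairs or above them. In del7 Slco1b2 had 1012, 1006, 1235 and 1296 CPM, against 1353, 1418, 1193 and 1062 CPM in del7_WT. Its AUG fold change was 0.48 (SE 0.32, adjusted p = 0.675, edgeR) with all libraries, 0.26 (SE 0.27) without AUG_WT replicate 1 and -0.09 (SE 0.15) without both low libraries.

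Slc10a1, on chromosome 12 (ENSMUSG00000021135.9), had 507, 709.5, 455 and 642 CPM in AUG, against 206, 273, 796 and 626 CPM in AUG_WT. The same 2 AUG_WT libraries were lowest of all 16. del7 was tight, from 585 to 671 CPM, against 529 to 842 CPM in del7_WT. The AUG fold change was 0.28 (SE 0.33) on the log2 scale, 0.05 (SE 0.27) without AUG_WT replicate 1 and -0.28 (SE 0.19) without both. AUG_WT stood at -0.55 (SE 0.33, adjusted p = 0.556, edgeR) against del7_WT, and at -0.32 (SE 0.27) without replicate 1.

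Abcb11, the export pump, lies on chromosome 2 (ENSMUSG00000027048.16). It had 985, 785, 1009.6 and 972 CPM in AUG, against 268, 704, 1066 and 970.2 CPM in AUG_WT. In del7 it had 811, 984, 747 and 831 CPM, against 925, 883, 922 and 973 CPM in del7_WT. Outside AUG_WT replicate 1 the 15 libraries stayed between 704 and 1066 CPM. The AUG fold change was 0.32 (SE 0.29) with all libraries and 0.06 (SE 0.15) without replicate 1, and the del7 value was -0.13 (SE 0.29). With that library left out, the 95% interval in AUG ran from -0.25 to 0.36, and in del7 from -0.43 to 0.14. The log2 ratio of Abcb11 to Slc10a1, export over uptake, averaged 0.71 ± 0.44 in AUG and 0.70 ± 0.46 in AUG_WT, and 0.43 ± 0.12 in del7 and 0.43 ± 0.31 in del7_WT (SD, n = 4 each). Both differences had an exact permutation p of 1.0. The AUG_WT mean was 0.81 ± 0.50 without replicate 1 (n = 3), a difference of -0.09 (exact permutation p = 0.8).

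Fgfr4, the receptor through which FGF15 restrains synthesis, was the only member whose AUG and AUG_WT ranges did not overlap. It lies on chromosome 13 (ENSMUSG00000005320.10). AUG had 52.2, 50.7, 56.6 and 51.9 CPM, against 28.3, 37.9, 46.5 and 42.9 CPM in AUG_WT. In del7 it had 54.4, 49.4, 58.7 and 52.0 CPM, against 55.8, 44.3, 58.4 and 49.5 CPM in del7_WT. The AUG values lay inside the ranges of del7 and of del7_WT, and all 4 AUG_WT values lay below every AUG value. The AUG fold change was 0.44 (SE 0.13) on the log2 scale, with an unadjusted p of 0.0047 and an adjusted p of 0.561 by edgeR. 1 of 10 members had all AUG libraries above all AUG_WT libraries, and 0.853% of all tested genes did, while 2.05% had no overlap in either direction. Without AUG_WT replicate 1 the fold change was 0.33 (SE 0.11, adjusted p = 0.736), Fgfr4 was again the 1 member without overlap, and the shares of all genes were 2.34% and 5.47%. Without both low libraries it was 0.26 (SE 0.11, adjusted p = 0.971).

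The comparison of the WT groups shares the AUG_WT libraries with that of AUG. AUG_WT stood at -0.42 (SE 0.13, unadjusted p = 0.0068, adjusted p = 0.287, edgeR) against del7_WT, and at -0.31 (SE 0.11, adjusted p = 0.435) without replicate 1. The ranges of these groups overlapped, as they did for all 10 members, where 3.53% of all genes showed no overlap. Against all 8 WT libraries together, the AUG fold change was 0.22 (SE 0.14, adjusted p = 0.940). The AUG effect exceeded the del7 effect by 0.40 (SE 0.19, unadjusted p = 0.0520, adjusted p = 0.864). Fgfr4 was also among the steadier genes, with an SD between samples of a group of 0.13 on the log2 scale without AUG_WT replicate 1, above that of 13.1% of tested genes.

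Klb, the co-receptor, on chromosome 5 (ENSMUSG00000029195.11), did not show the pattern of Fgfr4. It had 64.7, 75.0, 72.2 and 94.3 CPM in AUG, against 30.4, 66.6, 97.5 and 95.9 CPM in AUG_WT. The del7 mean was 77.7 ± 15.8 CPM and the del7_WT mean 84.8 ± 5.14 CPM (n = 4 each, ± SD). The AUG fold change was 0.08 (SE 0.27) with all libraries and -0.16 (SE 0.17, adjusted p = 0.921, edgeR) without AUG_WT replicate 1. The ligand gene Fgf15, known from mouse ileum, had 0 reads in every liver library, which allows up to 0.205 CPM in the deepest library and 0.389 CPM in the shallowest, for counting error only.

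Nr1h4, which encodes FXR, lies on chromosome 10 (ENSMUSG00000047638.16). It had 138, 146, 118 and 144 CPM in AUG, against 65.2, 54.6, 123 and 136 CPM in AUG_WT. The AUG range overlapped only the 2 higher AUG_WT libraries. In del7 it had 102, 112, 115 and 118 CPM, against 123, 126, 118 and 94.1 CPM in del7_WT. The AUG fold change was 0.52 (SE 0.23, unadjusted p = 0.0367, adjusted p = 0.561, edgeR). It was 0.40 (SE 0.22, adjusted p = 0.836) without AUG_WT replicate 1 and 0.09 (SE 0.13, adjusted p = 0.976) without both low libraries. In del7 it was -0.05 (SE 0.23), with a 95% interval from -0.54 to 0.44.

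Nr0b2, which encodes the repressor SHP, lies on chromosome 4 (ENSMUSG00000037583.3) and was the member with the fewest reads. It had 12.0, 14.4, 19.1 and 31.0 CPM in AUG, against 3.37, 19.2, 15.1 and 19.3 CPM in AUG_WT. In del7 it had 17.8, 5.49, 19.4 and 11.8 CPM, against 14.2, 12.8, 17.0 and 25.8 CPM in del7_WT. AUG_WT replicate 1 and del7 replicate 2 were the lowest libraries, and the groups of each pair overlapped. The fold change was 0.43 (SE 0.47, adjusted p = 0.801, edgeR) in AUG, 0.12 (SE 0.38) without AUG_WT replicate 1, and -0.35 (SE 0.48) in del7. The AUG value was 0.17 (SE 0.44) without AUG_WT replicates 1 and 2. Without AUG_WT replicate 1, the SD of Nr0b2 between samples of a group was above that of 90.0% of tested genes, and that of Cyp8b1 above 92.1%.

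Samples with more Nr0b2 tended to have less Cyp7a1. Over the 15 libraries without AUG_WT replicate 1, log2 CPM of the 2 genes gave Pearson's r = -0.68 (permutation p = 0.0023, adjusted 0.0092 over 4 relations) and Spearman's rho = -0.75 (permutation p = 0.0020, adjusted 0.0082). After the 2 libraries farthest from the median of Cyp7a1 were left out, del7_WT replicate 4 and AUG_WT replicate 2, r was -0.63. With group means removed, so that only differences between samples of a group remained, r was -0.71 (permutation p = 0.0028, adjusted 0.011) and rho was -0.81 (permutation p = 0.00047, adjusted 0.0019). With del7 replicate 2 also left out, an alternative chosen after seeing the data, r was -0.71 over 14 libraries (permutation p = 0.0041, adjusted 0.016) and rho was -0.70 (permutation p = 0.0069, adjusted 0.028). Over all 16 libraries r was -0.44 (permutation p = 0.0844, adjusted 0.113) and rho was -0.68 (permutation p = 0.0044, adjusted 0.018), and r was -0.37 without the 2 farthest libraries. AUG_WT replicate 1, low in Nr0b2 at 3.37 CPM with 249 CPM of Cyp7a1, lay away from the other points.

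**Figure D4:**
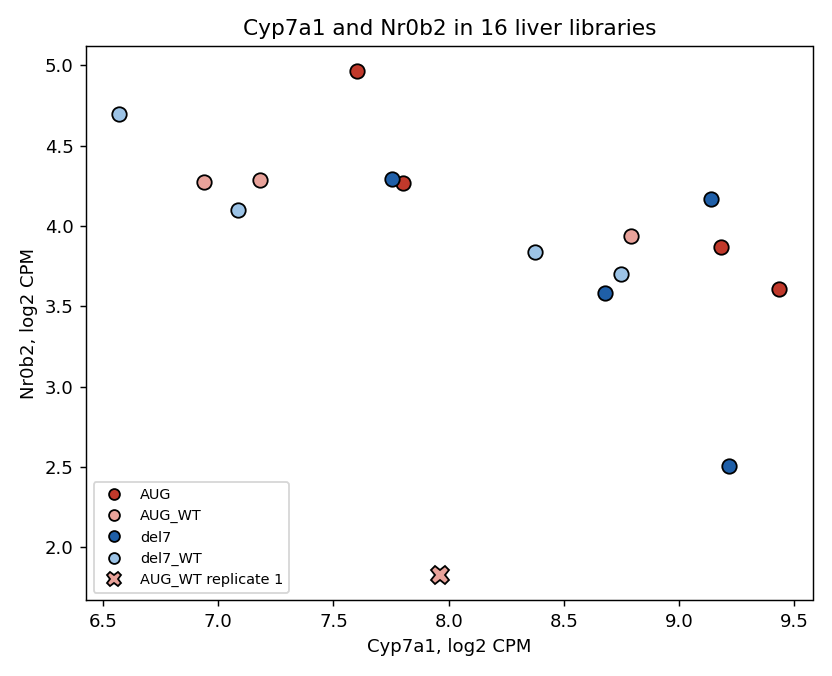
log2 CPM of Nr0b2 against log2 CPM of Cyp7a1, 1 point a library, coloured by group. Libraries with high Cyp7a1 tend to lie lower in Nr0b2 (r = -0.68 over 15 libraries), and AUG_WT replicate 1, the cross, lies apart at the bottom.

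The other 3 relations did not pass over the 16 or the 15 libraries as they stand. Cyp7a1 and Cyp8b1 gave r = 0.33 and rho = 0.26 over the 15 libraries (permutation p = 0.232 and 0.353, adjusted 0.464 and 0.471), and r = 0.58 without the 2 farthest libraries. Nr0b2 and Abcb11, both known targets of FXR, gave r = 0.64 (permutation p = 0.038, adjusted 0.0876) over 16 libraries and -0.09 (permutation p = 0.761, adjusted 0.761) over 15, with rho = 0.09 and -0.11 (permutation p = 0.756 and 0.694, adjusted 0.857 and 0.694). Over the 15 libraries r was -0.03 without the 2 farthest. Fgfr4 and Klb gave r = 0.60 (permutation p = 0.0438, adjusted 0.0876) over 16 libraries and -0.15 (permutation p = 0.592, adjusted 0.761) over 15, with rho = -0.05 and -0.28 (permutation p = 0.857 and 0.319, adjusted 0.857 and 0.471). Over the 15 libraries r was -0.41 without the 2 farthest. With group means removed over 16 libraries both had a permutation p of 0.032 after adjustment, with r of 0.60 and 0.66 and rho of 0.31 and 0.24 (adjusted 0.319 and 0.374). Over 15 libraries r was then -0.27 and 0.05, so both relations rested on AUG_WT replicate 1. The log2 ratio of Cyp7a1 to Nr0b2 averaged 5.08 ± 1.34 in del7 and 3.62 ± 1.46 in del7_WT (SD, n = 4 each; exact permutation p = 0.171, adjusted 0.514). In AUG it averaged 4.34 ± 1.5 and in AUG_WT 4.16 ± 1.68 (exact permutation p = 0.857, adjusted 1.0). AUG_WT averaged 3.48 ± 1.20 without replicate 1, a difference of 0.86 (exact permutation p = 0.4, adjusted 0.6).

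Genes whose levels were most like those of 3 members were picked by Pearson's r of log2 CPM over the 15 libraries. The search covered 12314 tested genes with a gene symbol that is no clone or pseudogene name. As these are the highest of so many values they are given with no test. For Cyp7a1 they were Rock1 at 0.90, Lemd3 at 0.79 and Rbm26 at 0.79, with r of 0.84, 0.66 and 0.76 without the 2 farthest libraries. For Nr0b2 they were Rab2a at 0.81, Ap2s1 at 0.81 and Slc38a2 at 0.80, with r of 0.55, 0.70 and 0.51 without the 2 farthest. For Abcb11 they were Suclg2 at 0.85, Maob at 0.83 and Immp1l at 0.83, with r of 0.78, 0.65 and 0.69.

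The wider pathway had almost no calls. Of 16 further genes of synthesis and conjugation all were tested, of 15 transport genes 13, and of 35 control genes 33. In every comparison edgeR called 0 of each list. At an unadjusted p under 0.05 there was 1 synthesis gene for AUG, 1 transport gene for del7, 2 transport genes for the difference of effects, and 2 synthesis and 3 transport genes between the WT groups. The shares of all genes at that level were 8.81%, 1.92%, 5.21% and 11.8%. limma voom also called 0 of each list, and DESeq2 called 1, Slco1a1 between the WT groups, where it called 0.485% of all genes. Slco1a1 was high in 1 library, del7_WT replicate 1, at 91.7 CPM, and DESeq2 was not run without it. Between AUG and AUG_WT 13 of 16 synthesis genes were above 0, with a median log2 fold change of 0.27, against 10 of 16 and 0.04 without AUG_WT replicate 1. 10 of 13 transport genes were above 0 in AUG, with a median of 0.11, against 3 of 14 and -0.16 without that library. In del7 5 of 16 synthesis genes and 3 of 13 transport genes were above 0, with medians of -0.08 and -0.12. AUG_WT replicate 1 had the lowest level of 14 of the 16 synthesis genes, 9 of the 13 transport genes and 17 of the 33 control genes.

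The synthesis gene with the smallest p in AUG was Scp2, which encodes a peroxisomal thiolase that shortens the bile acid side chain. It had 574, 742, 594 and 689.9 CPM in AUG, against 238, 431, 485 and 545 CPM in AUG_WT, so the ranges did not overlap, as for 2.05% of all genes. Its fold change in AUG was 0.61 (SE 0.21, unadjusted p = 0.0116, adjusted p = 0.561, edgeR), and 0.43 (adjusted p = 0.778) without AUG_WT replicate 1. Mean Scp2 was 650 CPM in AUG, 667 CPM in del7 and 611 CPM in del7_WT, against 425 CPM in AUG_WT. AUG_WT stood at -0.53 (SE 0.21, unadjusted p = 0.0264, adjusted p = 0.349, edgeR) against del7_WT, and at -0.34 (adjusted p = 0.613) without replicate 1. Baat, which joins bile acids to taurine, stood at 0.30 (SE 0.18, adjusted p = 0.640) in AUG against AUG_WT, and at 0.14 (adjusted p = 0.910) without that library. Hsd3b7, which acts on the steroid ring after Cyp7a1, stood at -0.64 (SE 0.26, adjusted p = 0.343) in AUG_WT against del7_WT, and at -0.49 (adjusted p = 0.690) without it.

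Among the transporters Abcc4, which carries bile acids back to the blood, had 33.1 to 44.6 CPM in AUG_WT, against 15.6 to 23.4 CPM in del7_WT, with no overlap, as for 3.53% of all genes. That difference was 0.91 (SE 0.24, unadjusted p = 0.0017, adjusted p = 0.287, edgeR), and 0.94 (adjusted p = 0.301) without AUG_WT replicate 1. AUG, at 18.3 to 40.9 CPM, stood at -0.35 (SE 0.24, adjusted p = 0.684) against AUG_WT. Slco1a1, an uptake carrier, was at 91.7 CPM in del7_WT replicate 1 and at 6.49 CPM or less in the other 15 libraries. Its fold change was -4.93 (SE 1.35, adjusted p = 1.0) in del7 and -1.98 (SE 1.07, adjusted p = 1.0) without that library, and it stood at -5.96 (SE 1.47, adjusted p = 0.269) and -3.0 (SE 1.14, adjusted p = 0.532) in AUG_WT against del7_WT. Atp8b1, a lipid flippase of the canalicular membrane, stood at 0.23 (SE 0.14) in AUG and at -0.25 (SE 0.14) in del7, and the difference of 0.47 had an unadjusted p of 0.0288 and an adjusted p of 0.864. Its AUG value was 0.11 and the difference 0.36 without AUG_WT replicate 1.

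Of the control list the smallest p in AUG belonged to Fgfr1, another FGF receptor, at -0.54 (SE 0.29, adjusted p = 0.615), and -0.17 without AUG_WT replicate 1. Kdm1a, a histone demethylase, stood at -0.25 (SE 0.14, adjusted p = 0.618), and at -0.14 without that library. In del7 Pltp, a phospholipid transfer protein, stood at 0.49 (SE 0.33), with an adjusted p of 1.0 by edgeR. Dusp6, a transcript induced by FGF signalling, stood at 0.59 (SE 0.34, adjusted p = 0.532) in AUG_WT against del7_WT, and at 0.71 (adjusted p = 0.690) without AUG_WT replicate 1.

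2 further genes were chosen after their values were seen, because they set AUG_WT replicate 2 apart from its group. Abcc3, which exports bile acids to the blood, had 41.3 CPM in that library, against 257 to 955 CPM in the other 15. Cyp7b1, which hydroxylates oxysterols in the alternative route, had 108 CPM there, against 13.3 to 48.4 CPM elsewhere. The genes Slc51a, Slc51b and Gpbar1 did not pass the filter, with 1, 113 and 2 reads over all 16 libraries.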

How the data were processed

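Frozen liver RNA was depleted of ribosomal RNA and made into strand-keeping libraries, per the labels' protocols. The submitters' processing notes name cutadapt 2.10, STAR 2.7.9a and the GRCm39 build. The release of the gene annotation was not given in the sources used here. Raw read counts per gene, whole numbers with no scaling, are what the authors deposited. In all 16 libraries the values of the series table were those of the reverse-strand column in the sample tables, and 0 columns were left unmapped. Names, chromosomes and exon lengths came from GENCODE M21 on GRCm38, an older build, so no gene positions are printed from it; 52081 of 55357 identifiers had a name.

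The main test was edgeR 4.0.16 (R 4.3.3) with filterByExpr at a minimum count of 10, TMM scaling, 1 mean per group over 16 libraries, 12 residual degrees of freedom, and glmQLFit with a two-sided glmQLFTest. Benjamini-Hochberg adjustment ran over the 14421 tested genes. log2 CPM carries a prior count of 2, and log2 ratios a pseudocount of 0.5. Correlations used 100000 two-sided permutations (Python 3.11.15, scipy 1.17.1). The fit was also run on counts simulated from 1 mean per gene, with 200 genes changed in AUG. Those counts hold no library that stands apart, so that run does not cover a case such as AUG_WT replicate 1. Alternatives were DESeq2 1.42.0, limma 3.58.1 voom with sample quality weights, RLE scaling, other filters, the unstranded column, the 2 groups alone, all WT libraries as control, the replicate number as a block, and each library left out in turn.

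The members, the pathway lists and the alternatives were chosen with earlier results of these data known. The genes named were all 10 members and, from each pathway list and comparison, those with an adjusted p under 0.05 or else the 2 with the smallest p, of which a selection is described and 1 is not reported here. Limits for a gene with 0 reads use 3 counts. The least different pair of replicates differed by a chi-square of 10.8 per gene, so every library was kept as a sample.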

Additional observations from a re-analysis of the deposited data

Results flagged for a closer look

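Among 52 sets of 4 libraries (a gene or ratio in a group), 5 had a highest or lowest library whose gap to the nearest other, as a share of the group's range, exceeded Dixon's 95% critical value for 4. Chance flags about 1 in 20 such groups. Abcb11 in AUG replicate 2 was at 785 CPM, against 972 to 1009.6 CPM in the other 3 AUG libraries. Cyp27a1 in AUG replicate 1 was at 265 CPM, against 358 to 379 CPM in the others. Slco1b2 in AUG replicate 4 was at 1703 CPM, against 1280.0 to 1331 CPM. In AUG_WT replicate 1 Cyp27a1 was at 148 CPM, against 331 to 376 CPM, and Nr0b2 at 3.37 CPM, against 15.1 to 19.3 CPM.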

How the results depend on the processing

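Over 27 settings no member was called, so the fold changes that turned sign were all uncalled. Of 260 combinations of a member and an alternative 242 kept their direction for AUG and 18 turned. The counts were 253 and 7 of 260 for del7, 225 and 15 of 240 for the difference of effects, and 232 and 18 of 250 for AUG_WT against del7_WT. The cause was not tested for any value that turned.

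Without AUG_WT replicates 1 and 2 together, log2 fold changes in AUG were -0.021 for Cyp27a1, -0.10 for Abcb11, -0.28 for Slc10a1, -0.087 for Slco1b2 and -0.32 for Klb. Those of AUG_WT against del7_WT were 0.23 for Cyp7a1, 0.12 for Abcb11, 0.013 for Slc10a1, 0.25 for Slco1b2, 0.15 for Nr1h4 and 0.17 for Klb, and the differences of effects were -0.11 for Slc10a1 and -0.18 for Klb. With voom weights AUG gave -0.012 for Abcb11, -0.13 for Slc10a1 and -0.24 for Klb, AUG_WT against del7_WT gave 0.24 for Cyp7a1, 0.038 for Abcb11, 0.026 for Nr0b2 and 0.074 for Klb, and the difference for Klb was -0.11. With all WT libraries as control, AUG gave -0.018 for Slc10a1 and -0.039 for Klb, and del7 gave 0.0074 for Abcb11, 0.10 for Slc10a1, 0.0093 for Slco1b2 and 0.086 for Nr1h4. Without a filter the difference for Cyp7a1 was 0.039.

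With 1 library left out at a time, AUG ran from -0.43 to 0.32 for Cyp8b1, -0.055 to 0.28 for Cyp27a1 and -0.16 to 0.26 for Klb. In del7 the ranges were -0.031 to 0.42 for Cyp8b1 and -0.026 to 0.10 for Fgfr4. The differences ran from -0.43 to 0.47 for Cyp7a1, -0.60 to 0.14 for Cyp8b1 and -0.025 to 0.39 for Klb. AUG_WT against del7_WT ran from -0.54 to 0.35 for Cyp7a1, -0.32 to 0.012 for Cyp27a1, -0.49 to 0.016 for Nr0b2 and -0.41 to 0.014 for Klb. Log2 ratio differences in AUG ran from -1.21 to 0.36 for Cyp8b1 to Cyp7a1, -0.32 to 0.86 for Cyp7a1 to Nr0b2 and -0.13 to 0.23 for Abcb11 to Slc10a1, and the last ran from -0.12 to 0.12 in del7.

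The labels do not say that replicate numbers pair the samples. Deviations of libraries with the same number had r from -0.16 to 0.35 between AUG and AUG_WT, from 0.09 to 0.28 between del7 and del7_WT and from -0.07 to 0.06 between the WT groups, and not every library was closest to its own number. With the replicate number as a block edgeR called 0 of 10 members in each comparison, Cyp8b1 stood at 0.064 in AUG and Cyp7a1 at 0.23 in AUG_WT against del7_WT. Over all genes the block gave 1 call in that WT comparison, against 5 without it, and 2 in the difference, against 1.

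Cyp7a1 with Nr0b2 gave r = -0.56 over 16 libraries with group means removed (permutation, adjusted p = 0.032), -0.68 without AUG_WT replicate 1, and -0.71 both with group means also removed and without del7 replicate 2 as well. Nr0b2 with Abcb11 gave 0.60 with group means removed over 16 libraries (permutation, adjusted p = 0.032), -0.27 over 15 and -0.086 without that step. Fgfr4 with Klb gave 0.66 (permutation, adjusted p = 0.032), and -0.15 over 15 and over 14 libraries.

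Over all genes edgeR called 4 for AUG, 0 for del7, 1 for the difference and 5 between the WT groups, DESeq2 called 9, 1, 6 and 70, and voom 6, 0, 3 and 12. Without AUG_WT replicate 1 edgeR called 4, 0, 2 and 10. The WT count was 13 with the 2 groups alone, 11 with no filter, 3 with the unstranded column and 1 to 10 with 1 library left out. The depth limits Nr0b2 most among the members, with 48 reads in its lowest library, and 4 samples a group leave intervals as wide as those given for Cyp7a1.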

Other observations

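Gene lists beside the pathway were read for their counts only. None of the core clock, acute phase, feeding and cholesterol synthesis lists had a gene called by edgeR, DESeq2 or limma voom in any comparison. At an unadjusted p under 0.05 edgeR had no gene of these lists for AUG or the difference of effects, 1 acute phase gene for del7, and 4 acute phase and 2 clock genes between the WT groups, where the shares of all genes were 8.81%, 5.21%, 1.92% and 11.8%. Without AUG_WT replicate 1, 5 of 13 acute phase genes were at that level for AUG, all higher in AUG. The share of all genes was 5.92%, with 376 genes higher and 487 lower. Between the WT groups 0 of 13 were at that level, where the share of all genes was 7.47%. Of 13 tested acute phase and cytokine genes, 12 were above 0 in del7 against del7_WT, with a median log2 fold change of 0.65 against 0.00 over all genes. Between AUG and AUG_WT 6 of the 13 were above 0 with a median of -0.07, and 10 of 13 with a median of 0.54 without AUG_WT replicate 1. Between AUG_WT and del7_WT 12 of 13 were above 0 with a median of 0.82, and 8 of 13 with a median of 0.16 without that library. Saa1, a serum amyloid gene of that list chosen after its values were seen, had 10.3, 106, 117 and 5.75 CPM in AUG, against 51.6, 7.49, 19.1 and 3.27 CPM in AUG_WT, so 2 AUG libraries were high and 2 were within the AUG_WT range. In del7 Saa1 had 16.8, 43.3, 9.32 and 8.58 CPM, against 10.9, 10.2, 8.05 and 9.48 CPM in del7_WT. Thus del7 replicates 1 and 2 were above the del7_WT range and replicates 3 and 4 within it. Whether the del7 shift of the list rests on those 2 libraries was not tested. Of 10 cholesterol synthesis genes 9 were above 0 in del7, with a median of 0.12, and 7 in AUG, with a median of 0.09. Of 15 core clock genes 7 were above 0 in AUG and 7 in del7, with medians of -0.01 and -0.02. Of 10 feeding genes 7 were above 0 in AUG and 4 in del7, with medians of 0.10 and -0.02. Without AUG_WT replicate 1 the AUG count of feeding genes was 2 of 10, with a median of -0.16.

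Among all 45 pairs of members the median Pearson's r of log2 CPM was 0.62 over 16 libraries, 0.10 over 15 and 0.03 without AUG_WT replicates 1 and 2. These values share libraries and are a description with no test.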
